A study of Mus musculus with 6 samples.

Results

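The enzymes that turn glucose into lactate and the genes of the hypoxia response were compared between early T cell progenitors lacking the E proteins E2A and HEB (dKO) and control progenitors. The set held 33 genes chosen by name, 18 glycolytic enzymes, 6 regulators around them and 9 genes of the hypoxia-inducible factor (HIF) response with the cytokine Mif, of 22609 genes in the authors' deposited table, and all 33 were tested there. Pyruvate kinase stood in it under its older symbol Pkm2. The dKO cells came from mice with floxed E2A (Tcf3) and HEB (Tcf12) alleles and an Il7r-driven Cre recombinase, labelled E2Afl/flHEBfl/flIL7RCre, and the control cells came from mice labelled wild type. Both were C57BL/6, sorted from fetal thymus as CD4- CD8- lineage-negative CD44+ CD25- c-Kit+ cells, with 3 RNA-seq libraries each. Only the dKO gate included YFP, which makes the sort differ together with the genotype, and what YFP marks is not in the labels. The labels give no fetal age, do not state whether control mice carried Cre or floxed alleles, and name no animal or culture behind a library. The p-values therefore reflect variation among these libraries only, some of which may be technical.

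Glycolysis splits glucose into pyruvate, and lactate dehydrogenase can then regenerate its cofactor by making lactate, which lets the pathway run without the mitochondria. Dividing thymocytes and activated lymphocytes use this route heavily. HIF-1 alpha, the product of Hif1a, is marked for destruction by oxygen-dependent prolyl hydroxylases (the Egln genes) and, when it escapes them, raises many glycolytic genes together with genes for mitochondrial turnover, blood vessel growth and collagen folding.

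The values are 1 mean normalised count per gene and group in the authors' deposited table, with the authors' fold change and adjusted p. They summed to 23.4 M in the dKO group and 22.1 M in the control group. The scaling of each library was read from the spacing of low means. Applied to these sums, it gave about 24.3 to 27.0 M counted reads per dKO library and 18.2 to 22.6 M per control library. These depths assume that the libraries of a group have the same normalised total. The genes deleted by design were low in dKO in the authors' deposited table, Tcf3 at 364 against 8931 in control and Tcf12 at 562 against 3845 in control. Markers of early T cell progenitors summed to 53796 in dKO and 54954 in control, but 3 of the 7 were higher in dKO (Kit, Ptprc and Il7r) and 3 lower (Notch1, Flt3 and Tcf7), with Notch1 at 1829 in dKO and 10176 in control in the authors' deposited table. CD25 was excluded by the gate, yet its gene Il2ra had a mean of 8536 in dKO and 8417 in control in the authors' deposited table, while Cd4, Cd8a and Cd8b1 had at most 34.8 in dKO and 104 in control. Of the markers of other cells summed over each list, type 2 innate lymphoid (ILC2) genes came to 64601 in dKO and 16246 in control (5 of 6 higher in dKO) and NK cell genes to 1641 in dKO and 334 in control (4 of 4 higher). Mast cell genes came to 3049 in dKO and 7006 in control (4 of 6 lower, but Tpsb2 higher, at 217 in dKO and 19.1 in control), macrophage and neutrophil genes to 2382 in dKO and 8763 in control (4 of 8 tested lower, but Adgre1 higher, at 278 in dKO and 53.3 in control; S100a8 and S100a9 at 0 in both groups), and erythroid genes to 149 in dKO and 1234 in control (1 of 6 tested lower, with Hba-a1, Hba-a2, Hbb-b1 and Hbb-b2 at 0 in both groups). A list of genes induced by cell dissociation summed to 5119 in dKO and 2416 in control, with 5 of its 8 genes higher in dKO. These lists moved with every result below, and their part in it was not tested. In bulk RNA, more cells of a type and more RNA per cell cannot be told apart.

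Glycolytic enzymes were mostly higher in the dKO group, while the regulators around them fell or did not pass the test. A gene was called at the authors' adjusted p under 0.05. Of the 33 genes, 17 rose, 5 fell and 11 did not pass. Over all 16241 tested genes 29.0% were called, 15.1% higher and 13.8% lower in dKO. Abundant genes were called more often, and 32 of the 33 genes had a mean of both groups of at least 100, where 40.4% of tested genes were called, 21.2% higher and 19.1% lower. At a mean of at least 1000, which 21 of the 33 genes reached, it was 43.9%, with 25.1% higher and 18.8% lower. The 18 glycolytic enzymes held 13 that rose and 1 that fell, and their median log2 change was 0.45, against -0.02 over all tested genes. The 9 genes of the HIF response held 4 that rose and 1 that fell, with a median of 0.23. The changes were moderate in size, with 5 of the 17 rises and 2 of the 5 falls reaching 2-fold.

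**Figure D1:**
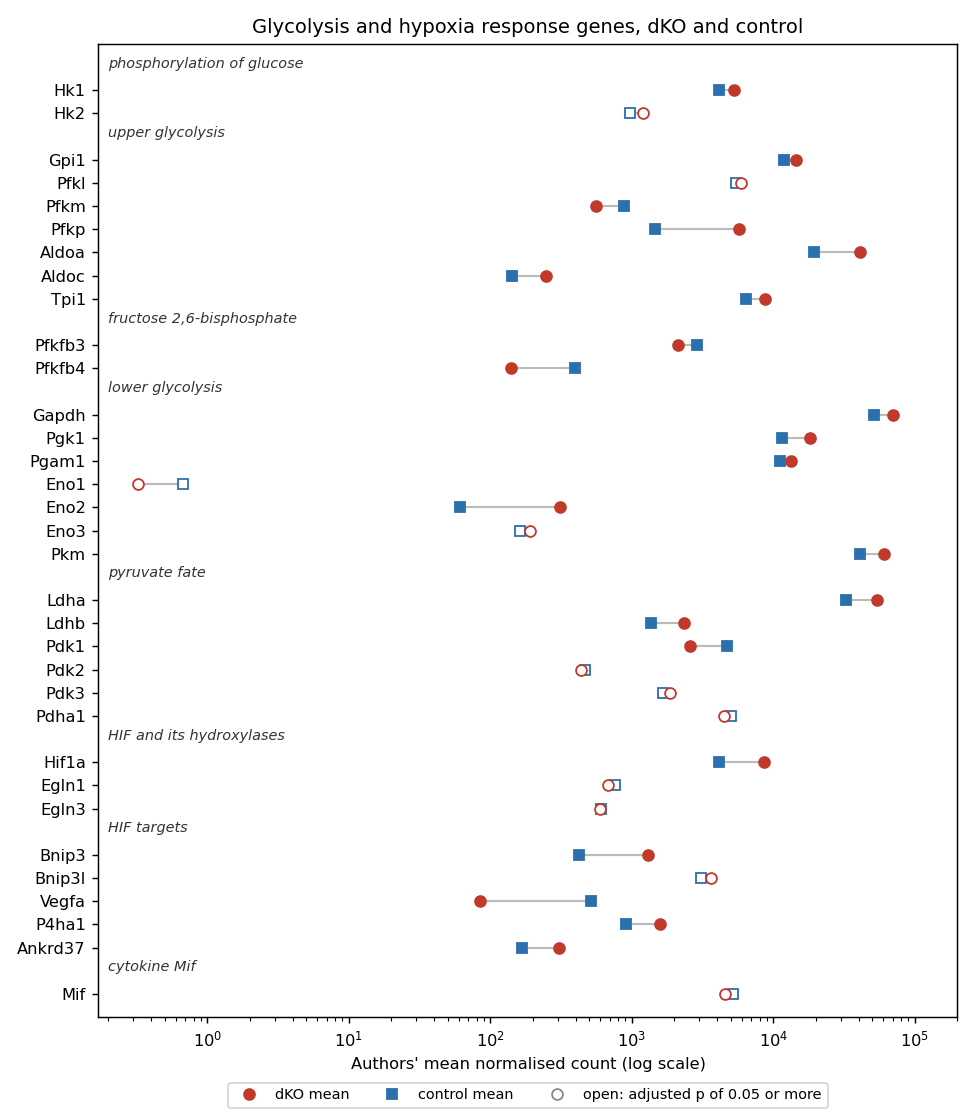
Authors' mean normalised count (log axis) of each of the 33 genes in dKO (red circles) and control (blue squares), by role, with open symbols for genes that did not pass the authors' adjusted p of 0.05. Red lies right of blue for the 17 genes that rose, and left of it for Pfkm, Pfkfb3, Pfkfb4, Pdk1 and Vegfa, which fell; Pkm stands for the row Pkm2.

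Of the hexokinases, which trap glucose in the cell by phosphorylation, Hk1 rose and Hk2 did not pass the test. Hk1, the isozyme of most resting cells, had a mean of 5247 in dKO and 4163 in control in the authors' deposited table, 1.26-fold higher (authors' adjusted p = 0.00837). Hk2, the inducible isozyme and a HIF target, had 1207 in dKO and 968 in control in the authors' deposited table, a ratio of 1.25 that did not pass (authors' adjusted p = 0.104). Set per kb of merged exon in GENCODE, Hk1 made up 83.4% of the hexokinase pair in dKO and 83.3% in control, so the make-up of the pair was nearly the same in both group means.

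Of the isozyme families set side by side here, phosphofructokinase shifted most in its make-up between the group means. Phosphofructokinase commits sugar to glycolysis and is built from liver (Pfkl), muscle (Pfkm) and platelet (Pfkp) subunits. Pfkp had a mean of 5730 in dKO and 1466 in control in the authors' deposited table, 3.91-fold higher (authors' adjusted p = 1.58e-63). Pfkm had 555 in dKO and 887 in control in the authors' deposited table, or 1.6-fold lower (authors' adjusted p = 0.00198). Pfkl, with 5931 in dKO and 5416 in control in the authors' deposited table, did not pass (authors' adjusted p = 0.552). Pfkp and Pfkm thus moved in opposite directions. Per kb of exon, Pfkp made up 42.9% of the family in dKO and 16.3% in control, Pfkl 51.2% in dKO and 69.5% in control, and Pfkm 5.96% in dKO and 14.2% in control. The summed level of the family per kb was 1.49-fold higher in dKO than in control.

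The other enzymes of upper glycolysis rose with smaller folds. Aldoa, the main aldolase, had a mean of 41165 in dKO and 19347 in control in the authors' deposited table, 2.13-fold higher (authors' adjusted p = 9.11e-15). Its brain-type relative Aldoc had a mean of 247 in dKO and 142 in control in the authors' deposited table (1.74-fold higher, authors' adjusted p = 0.0317). For genes of low abundance the means could be split back into whole reads per library, listed here by size factor, the scaling of each library (1.04, 1.08 and 1.16 for dKO, 0.823, 0.952 and 1.02 for control). Aldoc had normalised counts of 303, 249 and 190 in the dKO libraries (SD 57.0, n = 3), against 138, 137 and 151 in the control libraries (SD 8.04, n = 3). The groups did not overlap, and the dKO libraries were the more spread. Per kb of exon Aldoa still made up 99.5% of the pair in dKO and 99.4% in control. Gpi1, the isomerase that precedes phosphofructokinase, had a mean of 14508 in dKO and 11972 in control in the authors' deposited table, 1.21-fold higher (authors' adjusted p = 0.0374). Tpi1, which interconverts the triose phosphates made by aldolase, had a mean of 8716 in dKO and 6396 in control in the authors' deposited table, 1.36-fold higher (authors' adjusted p = 2.24e-04).

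Pfkfb3 and Pfkfb4, the genes of the set that act on fructose 2,6-bisphosphate, the strongest activator of phosphofructokinase, fell. Pfkfb3, whose product mainly makes this activator, had a mean of 2121 in dKO and 2866 in control in the authors' deposited table, or 1.35-fold lower (authors' adjusted p = 0.0014). Pfkfb4 had a mean of 140 in dKO and 394 in control in the authors' deposited table, or 2.81-fold lower (authors' adjusted p = 2.49e-07). Its dKO libraries had normalised counts of 170, 76.3 and 175, so the library of size factor 1.08 was the lowest. All 3 lay below the control mean, for which 5 splits into reads were possible, so no control value per library is given. Tigar, a phosphatase that breaks the same activator down, stood outside the set and had 362, 358 and 292 in dKO libraries, against 101, 67.2 and 141 in control libraries. Its groups did not overlap, and its mean in the authors' deposited table was 3.28-fold higher in dKO (authors' adjusted p = 6.35e-08).

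**Figure D2:**
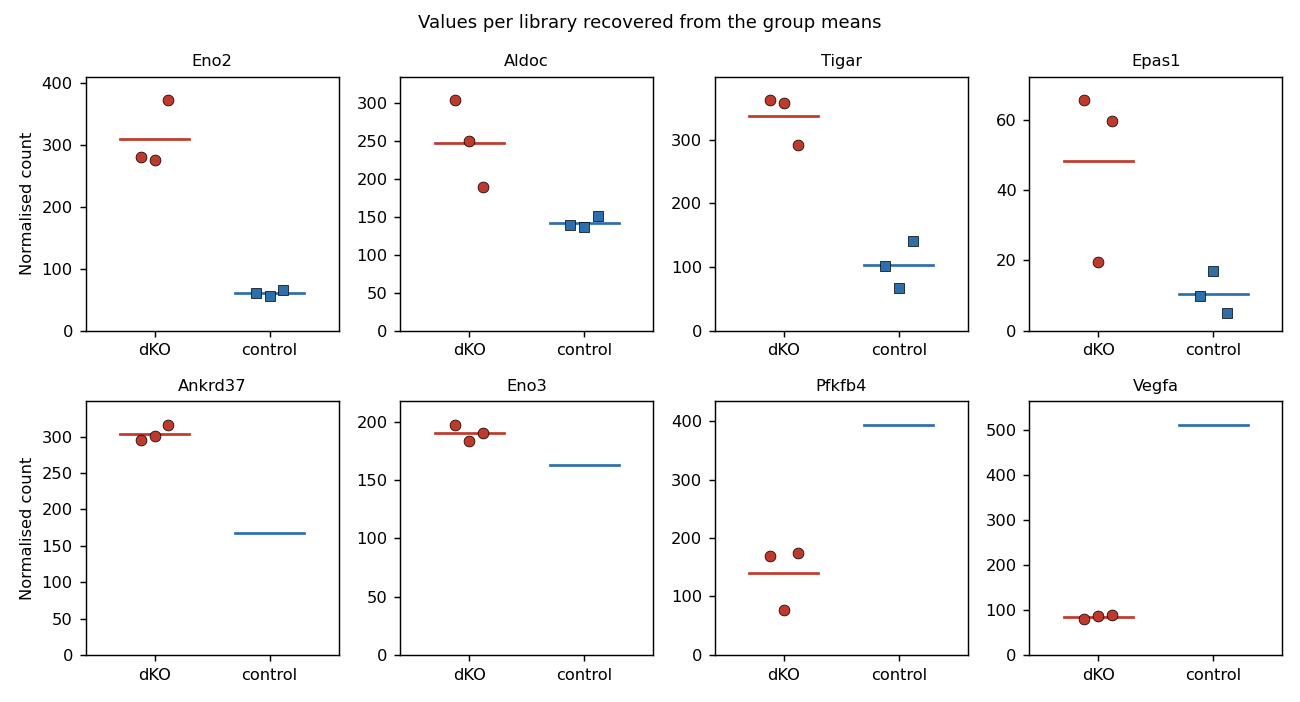
Normalised count per library (dKO circles, control squares) and group mean (lines) for 8 genes of low abundance whose dKO means could be split into whole reads. Control points are left out where several splits were possible. They are also left out for Vegfa, whose control mean of 511 lay above the limit of 500 for splitting. The dKO points of Eno2, Aldoc, Tigar and Epas1 lie above all control points, and those of Pfkfb4 and Vegfa below the control mean. Pgam2, outside the set and not shown, could also be split in both groups. Its groups overlapped, at 194 to 241 in dKO and 134 to 197 in control. How often the groups of all tested genes do not overlap was not computed. With 3 libraries against 3, a rank test cannot give a p under 0.1, so a lack of overlap is only described.

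In lower glycolysis the enzymes that yield ATP and pyruvate rose together, by moderate amounts. Gapdh, which oxidises the triose phosphate, had a mean of 70605 in dKO and 51691 in control in the authors' deposited table, 1.37-fold higher (authors' adjusted p = 7.24e-06). Pgk1, the first ATP-yielding enzyme, had 18021 in dKO and 11574 in control in the authors' deposited table, 1.56-fold higher (authors' adjusted p = 1.9e-07). Pgam1, a mutase, had 13302 in dKO and 11100 in control in the authors' deposited table, 1.2-fold higher (authors' adjusted p = 0.0284). Pkm, pyruvate kinase, had 60803 in dKO and 40973 in control in the authors' deposited table, 1.48-fold higher (authors' adjusted p = 5.81e-06). The table counts Pkm as a whole, so its M1 and M2 splice forms cannot be told apart. These genes have processed copies in the genome: 53.9% of the 50-base words of Pgk1 transcripts, 36.2% of those of Pgam1, 25.8% of those of Pkm and 25.1% of those of Gapdh, with 21.0% for Ldhb below, also occur in a transcript of another annotated gene. How the authors' counting treated such reads is not given in the sources used here, so these levels are uncertain.

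The enolases stood apart from the other enzymes. Eno2, the neuronal isozyme, had normalised counts of 280, 275 and 373 in the dKO libraries (SD 54.9, n = 3), against 60.7, 56.7 and 65.4 in the control libraries (SD 4.35, n = 3). Every dKO library lay more than 4-fold above the highest control library, and the means in the authors' deposited table were 5.08-fold higher in dKO than in control (authors' adjusted p = 6.96e-12). Eno3, the muscle isozyme, had 198, 183 and 190 in the dKO libraries, with a mean of 190 in dKO and 163 in control in the authors' deposited table, short of the threshold (authors' adjusted p = 0.67). Eno1, the enolase of nearly all cells, was counted with 1 read over all dKO libraries and 2 reads over all control libraries, under a floor of 3 reads, so no fold is given. The retrogene Gm5506 (now Eno1b), for which RefSeq lists Eno1 among the synonyms, had a mean of 14963 in dKO and 2893 in control in the authors' deposited table, 5.17-fold higher (authors' adjusted p = 1.23e-43). Of the 50-base words of the Eno1b transcript, 85.2% occur in a transcript of another gene, while of those of all Eno1 transcripts 25.3% occur in Eno1b. How reads of the pair were assigned was not tested. Counted together per kb of exon, Gm5506, Eno2 and Eno3 were 4.92-fold higher in dKO, with Gm5506 making up 97.2% of the sum in dKO and 92.5% in control.

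**Figure D3:**
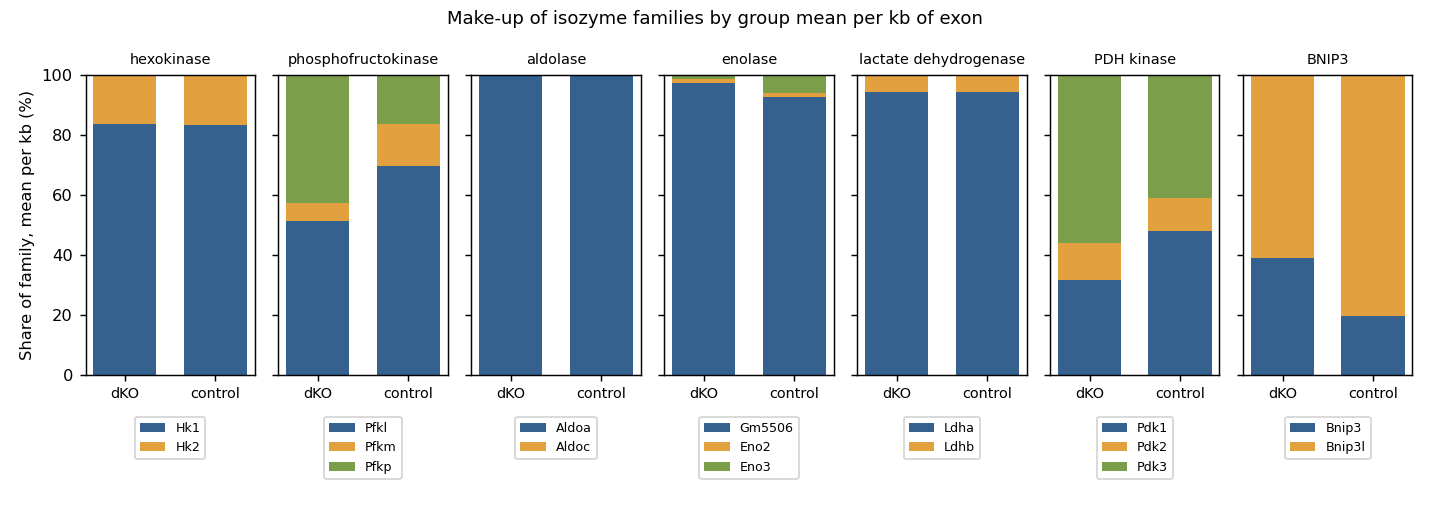
Share (%) of each family's summed mean per kb of exon taken by each isozyme, in dKO (left bar) and control (right bar). Pfkp takes 42.9% of phosphofructokinase in dKO and 16.3% in control, while the hexokinase and lactate dehydrogenase pairs differ by less than 1 percentage point.

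At the end of the pathway both lactate dehydrogenase genes rose, and Pdk1, 1 of 3 kinases that act as a brake on mitochondrial pyruvate use, fell. Ldha, the isozyme that favours lactate, had a mean of 54107 in dKO and 32705 in control in the authors' deposited table, 1.65-fold higher (authors' adjusted p = 1.77e-09). Ldhb, which favours the return to pyruvate, had 2327 in dKO and 1362 in control in the authors' deposited table, 1.71-fold higher (authors' adjusted p = 9.09e-05). Per kb of exon Ldha made up 94.1% of the pair in dKO and 94.3% in control, so both rose in step. The Pdk genes encode kinases that switch off pyruvate dehydrogenase. Pdk1, a HIF target in other cells, had a mean of 2564 in dKO and 4737 in control in the authors' deposited table, or 1.85-fold lower (authors' adjusted p = 3.54e-14). Pdk3, with 1861 in dKO and 1661 in control in the authors' deposited table, did not pass (authors' adjusted p = 0.441). Pdk2, with 435 in dKO and 469 in control in the authors' deposited table, did not pass either (authors' adjusted p = 0.822). Per kb of exon Pdk1 made up 31.5% of the 3 kinases in dKO and 47.9% in control. Pdk3 made up 56.1% in dKO and 41.2% in control. The summed level of the 3 kinases per kb in dKO was 0.822 times that in control. Pdha1, the subunit that these kinases phosphorylate, had 4459 in dKO and 5039 in control in the authors' deposited table and missed the threshold (authors' adjusted p = 0.254).

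Of the other genes of the pyruvate dehydrogenase complex and mitochondrial pyruvate entry, 1 of 10 tested fell and 9 did not pass, with 9 of the 10 at a mean of at least 100. Of all tested genes at that mean 21.2% rose and 19.1% fell, so falls in this list were no more frequent than that. Dlat, the complex's acetyltransferase, had a mean of 2128 in dKO and 3453 in control in the authors' deposited table, or 1.62-fold lower (authors' adjusted p = 2.6e-08). Dld, its dehydrogenase, had 3642 in dKO and 4037 in control in the authors' deposited table, Pdhb, the partner of Pdha1, had 3170 in dKO and 3268 in control, and the pyruvate carrier gene Mpc1 had 1482 in dKO and 1571 in control. The authors' adjusted p of these 3 genes in the authors' deposited table was 0.335, 0.895 and 0.784 in that order.

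Genes for bringing glucose in and lactate out moved in both directions. Of 8, all with a mean of at least 100, 4 rose, 2 fell and 2 did not pass, where 21.2% of tested genes at that mean rose and 19.1% fell. Slc2a1, the main glucose carrier of lymphocytes and a HIF target, had a mean of 2538 in dKO and 1291 in control in the authors' deposited table, 1.97-fold higher (authors' adjusted p = 2.75e-10). The lactate exporter of glycolytic cells, Slc16a3, had 4275 in dKO and 712 in control in the authors' deposited table, 6.01-fold higher (authors' adjusted p = 4.75e-33). The other lactate carriers ran the opposite way. Slc16a1 had 1234 in dKO and 2277 in control in the authors' deposited table, or 1.85-fold lower (authors' adjusted p = 1.4e-10), and Slc16a7 had 161 in dKO and 387 in control, 2.41-fold lower (authors' adjusted p = 9.03e-06). Slc2a3, another glucose carrier, had 1388 in dKO and 1704 in control in the authors' deposited table and missed the threshold (authors' adjusted p = 0.0898), as did Slc2a8, with 401 in dKO and 286 in control (authors' adjusted p = 0.09). The remaining rises, named after their values were seen, were Slc2a6, with 162 in dKO and 47.1 in control in the authors' deposited table (authors' adjusted p = 1.59e-04), and Bsg, the chaperone of lactate carriers, with 7914 in dKO and 6419 in control (authors' adjusted p = 0.0122).

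Hif1a itself rose. Its mean was 8651 in dKO and 4102 in control in the authors' deposited table, 2.11-fold higher (authors' adjusted p = 6.95e-24). Its hydroxylases did not pass the test. Egln1, the main oxygen sensor, had 676 in dKO and 758 in control in the authors' deposited table (authors' adjusted p = 0.551). Egln3, a sensor that HIF itself induces, had 594 in dKO and 603 in control in the authors' deposited table (authors' adjusted p = 1). HIF-1 alpha is controlled mainly as a protein, which RNA levels do not show. Of 7 other genes of the HIF pathway, 2 rose, 1 fell and 4 did not pass, near the 21.2% and 19.1% of tested genes with a mean of at least 100, which 6 of the 7 had. Arnt, the partner subunit, had 1702 in dKO and 1161 in control in the authors' deposited table, 1.47-fold higher (authors' adjusted p = 0.00188). Epas1, which encodes HIF-2 alpha, had 65.5, 19.5 and 59.7 in dKO libraries, against 9.72, 16.8 and 4.88 in control libraries (authors' adjusted p = 0.0222 in the authors' deposited table). Its groups did not overlap, but its lowest dKO library lay close to its highest control library. Its fold of 4.61 in the authors' deposited table ranged from 3.64 to 6.61 when single libraries were left out. Hif3a, whose product can act against the other HIF subunits, had a mean of 323 in dKO and 1349 in control in the authors' deposited table, or 4.18-fold lower (authors' adjusted p = 1.87e-32). Hif1an had 2178 in dKO and 1859 in control in the authors' deposited table, Egln2 had 1773 in dKO and 1795 in control, and Vhl, the gene of the protein that tags hydroxylated HIF for destruction, had 908 in dKO and 757 in control, and none of these 3 passed.

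The HIF targets did not move as a block. Bnip3, which directs mitochondria to autophagy, had a mean of 1307 in dKO and 420 in control in the authors' deposited table, 3.11-fold higher (authors' adjusted p = 3.42e-21). Its relative Bnip3l had 3614 in dKO and 3071 in control in the authors' deposited table and missed the threshold (authors' adjusted p = 0.107). Per kb of exon Bnip3 made up 39.0% of the pair in dKO and 19.5% in control, and 47.2% of the 50-base words of Bnip3 transcripts also occur in a transcript of another gene. P4ha1, a collagen prolyl hydroxylase subunit, had 1570 in dKO and 904 in control in the authors' deposited table, 1.74-fold higher (authors' adjusted p = 9.25e-04). Ankrd37 had 295, 301 and 317 in the dKO libraries, and its mean in the authors' deposited table was 304 in dKO and 167 in control, 1.82-fold higher (authors' adjusted p = 0.00644). For its control mean 2 splits into reads were possible, 191, 151 and 159 or 48.6, 48.3 and 404, and with the second the groups would overlap. Vegfa, the vascular growth factor and a textbook HIF target, was the only one of these 5 targets that fell. Its dKO libraries had 79.0, 85.6 and 88.2, all near each other, against 511 as the control mean in the authors' deposited table, or 6.07-fold lower in dKO (authors' adjusted p = 3.41e-08). Mif, a cytokine that HIF can induce, had a mean of 4557 in dKO and 5223 in control in the authors' deposited table and missed the threshold (authors' adjusted p = 0.178); 50.9% of its 50-base words occur in other genes.

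**Figure D4:**
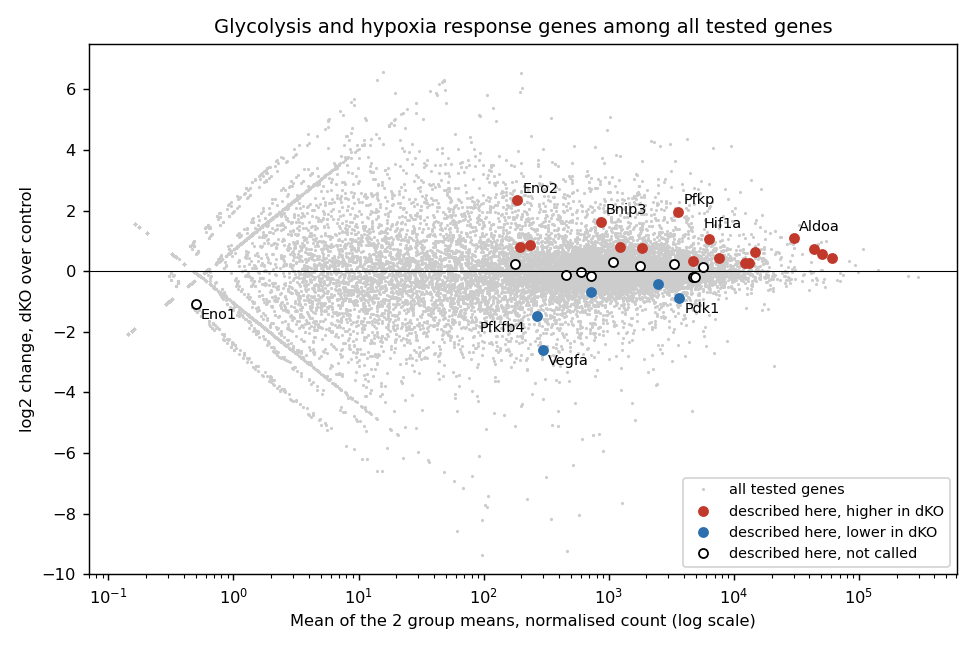
log2 change of dKO over control against the mean of both groups (log axis) for all 16241 tested genes (grey) and the 33 genes described here (red, higher; blue, lower; open, not called). Eno2, Pfkp and Bnip3 lie highest among the 33 and Vegfa lowest, and the abundant enzymes on the right lie above the line at 0.

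A wider list of hypoxia-induced genes was also mixed. Of 30 tested, 9 rose, Slc2a1 among them, 5 fell and 16 did not pass, shares of 30% and 16.7% beside the 15.1% and 13.8% of all tested genes. At a mean of at least 100, which 24 of the 30 had, the background was 21.2% and 19.1%. The share of rises lay above that background and the share of falls did not. Ero1l, an oxidase of protein folding, had a mean of 15389 in dKO and 3926 in control in the authors' deposited table, 3.92-fold higher (authors' adjusted p = 2.89e-82). Ddit4, an inhibitor of mTORC1, had 2898 in dKO and 486 in control in the authors' deposited table, 5.96-fold higher (authors' adjusted p = 4.06e-74). Rora, also a transcription factor of ILC2 and in the ILC2 marker list above, had 3234 in dKO and 567 in control in the authors' deposited table, 5.71-fold higher (authors' adjusted p = 7.46e-37). Cxcr4, a chemokine receptor that draws progenitors into the thymic cortex, had 134, 152 and 139 in the dKO libraries against 578 as the control mean in the authors' deposited table, or 4.08-fold lower in dKO (authors' adjusted p = 1.64e-16). Narf, Kdm3a and Tfrc, the most abundant that did not pass, had 2730, 2221 and 2373 in dKO of the authors' deposited table, against 2101, 1990 and 2772 in control. The remaining called genes of the list were named after their values were seen. Plod2, Plod1, Stc2, Hmox1 and Bhlhe40 rose, and Hilpda, Mxi1, Ndrg1 and Stc1 fell.

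Of 8 tested upstream controls of glycolysis, 3 rose, 2 fell and 3 did not pass. All 8 had a mean of at least 1000, where 25.1% of tested genes rose and 18.8% fell, so the counts lie near that background. Myc, a direct activator of many glycolytic genes, had a mean of 3451 in dKO and 9311 in control in the authors' deposited table, or 2.70-fold lower (authors' adjusted p = 1.28e-41). Rptor, a subunit of mTORC1, had 1543 in dKO and 2389 in control in the authors' deposited table, or 1.55-fold lower (authors' adjusted p = 5.57e-06). Prkaa1, a catalytic subunit of the energy sensor AMPK, had 1486 in dKO and 981 in control in the authors' deposited table, 1.51-fold higher (authors' adjusted p = 2.41e-04). Akt2 had 4784 in dKO and 3700 in control in the authors' deposited table, 1.29-fold higher (authors' adjusted p = 0.00337). Most enzyme genes stood higher in the group in which Myc stood lower, and a link between them was not tested. Rheb, Akt1 and Mtor did not pass, with 2412, 2231 and 1374 in dKO of the authors' deposited table, against 2382, 2437 and 1694 in control.

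**Figure D5:**
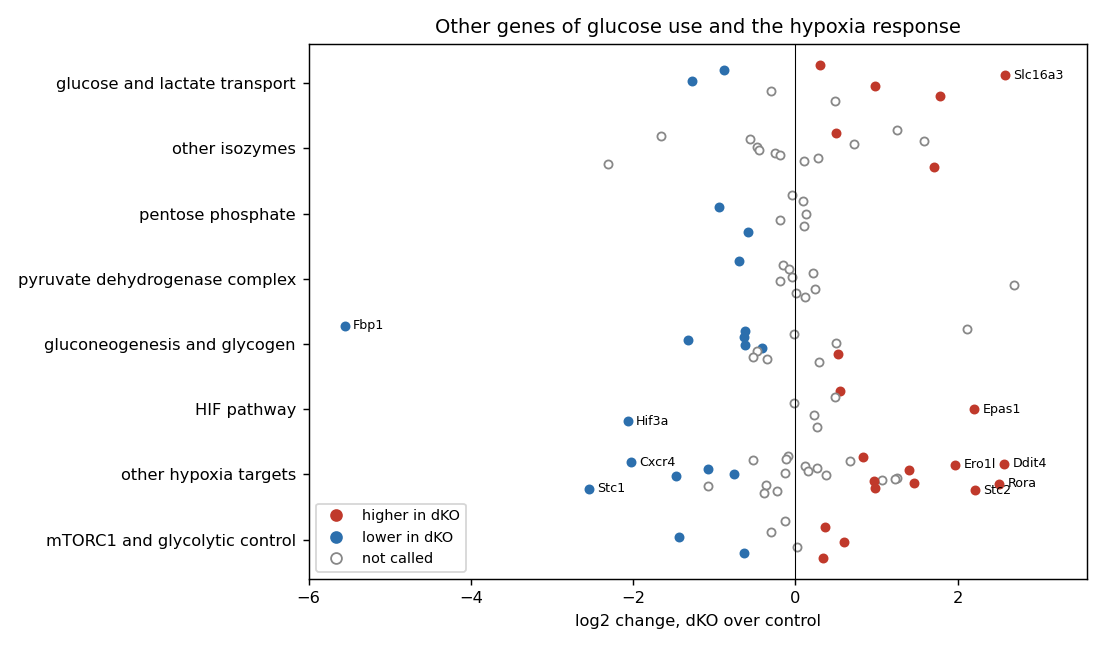
log2 change of dKO over control for each tested gene of 8 other lists (red, higher; blue, lower; open grey, not called). Slc16a3 lies at 2.59 and Ddit4 at 2.58, Hif3a at -2.06 and Fbp1 at -5.55, and most lists hold genes on both sides of 0.

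Promoter sequence was set beside these changes. RefSeq windows of 250 bases upstream of a start (build GRCm38.p6) were found for 32 of the 33 genes, 47 windows in all; Bnip3l was without an entry. The HIF core was searched as ACGTG or GCGTG on either strand, which overlaps the E-box CACGTG bound by Myc. CACGTG itself stood in 12.8% of the windows of these genes and in 6.02% of all windows. The HIF core stood in 76.6% of the windows of these genes and in 38.6% of all 32851 windows, and their median GC content was 60.4% against 52.4%. Counting a gene where any of its windows held it, the core was found in 14 of 17 that rose, 5 of 5 that fell and 9 of 10 that did not pass. The E-boxes CAGCTG or CAGGTG, of the kind E proteins bind, stood on either strand in 23.4% of these windows and in 27.7% of all windows. A match is a description of the letters and not a bound site. Shown are the windows of the genes with the smallest adjusted p that rose and fell among the enzymes and their regulators (Pfkp and Pdk1) and among the HIF targets (Bnip3 and Vegfa), 5′ to 3′ along the gene, with matches to the HIF core on either strand in capitals (CACGT and CACGC are its reverse) and, where a gene has several starts, its first listed window.
Pfkp, chr13:6648772-6649021, minus strand: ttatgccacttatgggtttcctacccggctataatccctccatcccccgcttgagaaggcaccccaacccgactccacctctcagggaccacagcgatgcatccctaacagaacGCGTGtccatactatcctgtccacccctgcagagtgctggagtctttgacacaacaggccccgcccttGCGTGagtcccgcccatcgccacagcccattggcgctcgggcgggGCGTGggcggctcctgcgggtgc
Pdk1, chr2:71872974-71873223, plus strand: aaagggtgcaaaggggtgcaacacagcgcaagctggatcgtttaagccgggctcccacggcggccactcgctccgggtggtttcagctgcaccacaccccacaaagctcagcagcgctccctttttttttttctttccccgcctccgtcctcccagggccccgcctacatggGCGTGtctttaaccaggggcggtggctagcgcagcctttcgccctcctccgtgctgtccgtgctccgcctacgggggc
Bnip3, chr7:138909507-138909756, minus strand: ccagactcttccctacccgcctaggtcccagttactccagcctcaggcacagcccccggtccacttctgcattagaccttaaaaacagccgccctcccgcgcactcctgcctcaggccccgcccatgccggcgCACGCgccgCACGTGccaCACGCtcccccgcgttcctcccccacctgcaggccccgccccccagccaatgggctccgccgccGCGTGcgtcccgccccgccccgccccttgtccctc
Vegfa, chr17:46032378-46032627, minus strand: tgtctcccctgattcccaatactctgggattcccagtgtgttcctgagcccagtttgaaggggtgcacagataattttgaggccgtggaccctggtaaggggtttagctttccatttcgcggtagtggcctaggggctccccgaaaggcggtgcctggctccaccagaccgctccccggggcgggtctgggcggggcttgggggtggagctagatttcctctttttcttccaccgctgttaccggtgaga
The Pfkp window held 3 matches, the Bnip3 window 5, counting the palindrome CACGTG on both strands, and the Pdk1 window 1. The Vegfa window shown held none, and a further Vegfa window, at a start listed at another place in the gene, held 2.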

How the data were processed

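Per the labels' protocols, cDNA was amplified from total RNA (SMARTer Ultra Low Input) for Illumina sequencing; amplified reads are not independent molecules, so floors cover counting error only. Per the submitters' processing notes, the tools included TopHat2 2.0.14, bcl2fastq 1.8.4 and DESeq 2, with build mm9; for the gene counter and annotation, neither notes nor headers say. Per the file headers, the deposited signal columns are the authors' mean normalised count per group, the fold is their ratio of dKO to control, and the p-value and adjusted p-value are theirs. The deposited table gives no value per library, so no new count test was fitted and the authors' calls at an adjusted p under 0.05 were used; the deposited adjusted p-values match a Benjamini-Hochberg adjustment over 16241 tested genes within 4.08e-07. log2 changes were computed from the means.

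Each mean adds up whole reads scaled by library, so means up to 500 were split into reads (numpy 2.4.6, Python 3.11.15). All of 300 values sampled per group up to a mean of 100 had a unique split. From 100 to 500, 81.7% of dKO and 17.3% of control values had one, and only unique splits are used, save where named. The split was tested on simulated data for means under 100 only. From 100 to 500, 16.7% of random values could also be split with the dKO size factors and 7% with those of control. Splits in that range are therefore less certain. Libraries are named by size factor, since replicate numbers are not in the table.

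Merged exon lengths and 50-base words came from GENCODE M21 (GRCm38), so levels per kb are approximate for reads aligned to mm9. All 33 genes are named; of each other list up to 4 called genes of smallest adjusted p and the 3 most abundant not called. The genes and lists were chosen with earlier results of these data known. Tigar, Hilpda, Mpc1, Mpc2 and the marker Adgre1 were matched through RefSeq synonyms.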

Additional observations from a re-analysis of the deposited data

How the results depend on the processing

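No paired analysis was possible because the table holds group means and its libraries carry no replicate number. For the same reason counts of calls could not be refitted without single libraries or with another count test. Of the 33 genes, 17 rose and 5 fell. With a fold of at least 2 required as well 5 rose and 2 fell, and with Bonferroni adjustment 9 rose and 3 fell. Over all tested genes, in either direction, 12.6% were called with that fold and 11.1% with Bonferroni adjustment. Of the 97 other tested genes of the pathway lists, 20 rose and 19 fell, or 20.6% and 19.6%. A mean of at least 100 was reached by 80 of the 97. At that mean 21.2% of tested genes rose and 19.1% fell, so these counts lie near that background. With a fold of at least 2 they were 10 and 9, and with Bonferroni adjustment 7 and 11. Adjusted p under 0.01 or 0.1, or a fresh adjustment over genes with a mean of at least 10, kept all 4 counts within 1.5 times. So did an adjustment over genes with a mean of at least 100, chosen after seeing the data and run on the 33 genes alone. The median log2 change of the glycolytic enzymes lay between 0.37 (means rescaled to equal totals) and 0.51 (Gm5506 in place of Eno1, chosen after seeing the data). No gene of the 33 changed direction under rescaling, centring or a pseudocount of 1 or 10. Without single libraries the log2 change ranged from 2.19 to 2.42 for Eno2 and from 0.63 to 0.96 for Aldoc. The means of abundant genes could not be split into libraries, so their spread is known only through the authors' p.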

Other observations

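Of 14 tested genes of gluconeogenesis and glycogen, which reverse or branch from glycolysis, 1 rose, 6 fell and 7 did not pass. Of all tested genes 15.1% rose and 13.8% fell, and where the mean was at least 100, as in 13 of the 14, 21.2% rose and 19.1% fell. Fbp1, the enzyme that undoes the phosphofructokinase step, had 27.9, 17.7 and 30.3 in the dKO libraries against 1187 as the control mean in the authors' deposited table, or 46.9-fold lower in dKO (authors' adjusted p = 5.78e-116). Pck2, the mitochondrial enzyme that makes phosphoenolpyruvate, had a mean of 470 in dKO and 1180 in control in the authors' deposited table, or 2.51-fold lower (authors' adjusted p = 1.88e-14). Gys1, which builds glycogen, had 617 in dKO and 960 in control in the authors' deposited table, or 1.56-fold lower (authors' adjusted p = 8.31e-04). Pygb, a glycogen phosphorylase, had 3185 in dKO and 2206 in control in the authors' deposited table, 1.44-fold higher (authors' adjusted p = 7.25e-04). Ugp2, Gbe1 and Pygl did not pass.

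Of 7 tested genes of the pentose phosphate pathway, which makes NADPH and ribose, none rose, 2 fell and 5 did not pass. All 7 had a mean of at least 100, where 21.2% of tested genes rose and 19.1% fell. Pgls, its lactonase, had a mean of 2278 in dKO and 4364 in control in the authors' deposited table, or 1.92-fold lower (authors' adjusted p = 4.38e-15). Tkt, the transketolase of its non-oxidative arm, had 15657 in dKO and 23433 in control in the authors' deposited table, or 1.5-fold lower (authors' adjusted p = 4.98e-09). Taldo1, Pgd and Rpe had 7517, 4566 and 2232 in dKO of the authors' deposited table, against 7002, 4281 and 2043 in control, and did not pass. Of 14 other tested isozymes and relatives of glycolysis, 12 did not pass and 2 rose, Tigar and Bpgm, with Bpgm 1.42-fold in the authors' deposited table. The rises came to 14.3%, near the 15.1% of all tested genes, and 6 of the 14 had a mean of at least 100. Pgam5, Pfkfb2 and Pgam2 were the most abundant that did not pass.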
